A study of Mus musculus with 12 samples.

Results

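The comparison set homozygous Med13l-null cortex (KO) against wild-type cortex (WT) across all genes, from bulk RNA sequencing of mouse embryos at E13.5 (E, embryonic day). It used 6 of the 12 samples of the series, 3 KO and 3 WT libraries, which the labels name by genotype. Of the 55335 genes in the count table, 18844 passed the expression filter and were tested. The embryos came from matings of heterozygous (Het) Med13L mice, and total RNA was taken from the cortex of 3 brains per genotype. The 3 Het libraries of the same study entered the fit only to share its estimate of the spread, and their values are given where they bear on a gene. The labels give neither the kind of null allele, the strain of the mice nor whether the 3 brains of a genotype came from 1 litter, so the p-values measure the spread between these brains.

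Mediator is the large complex that passes signals from transcription factors bound to DNA on to RNA polymerase II. Its kinase module, made of a cyclin-dependent kinase (Cdk8 or Cdk19), cyclin C, Med12 or Med12l, and Med13 or Med13l, docks on the core complex through the Med13 subunit and controls when the core can engage the polymerase. In the cortex at this age, radial glia line the ventricle and divide, intermediate progenitors expressing Eomes divide above them, and newborn projection neurons expressing Tbr1, Neurod2 and Neurod6 migrate outwards to build the deep layers first.

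The 6 libraries held 38161494 to 52992392 counts, and expression is given as CPM, read counts scaled to library size after TMM normalisation, with no correction for gene length. The most alike libraries did not share a genotype. By mean chi-square per gene, where a lower value means more alike, the closest of the 15 pairs was WT 1 with KO 3 (17.3), below WT 1 with WT 2 (23.1), while KO 1 and KO 3 were at 69.9. Y-linked and Xist counts marked WT 1 and KO 3 as female and the other 4 as male. The sample descriptions carry a letter, D for replicates 1 and 2 and F for replicate 3 of each genotype, whose meaning is not given. Het 1 stood apart from all 8 other libraries on the first principal component, at -90.4 against -12.3 to 55.1, and its deviations enter the shared estimate of the spread.

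Med13l itself was read first, since it is the targeted gene. It had 145, 146 and 116 CPM in WT 1, 2 and 3 and 130, 156 and 163 CPM in KO 1, 2 and 3. The groups overlapped, with a log2 fold change of 0.14 between them (SE 0.12, edgeR quasi-likelihood adjusted p = 0.901). Reads are summed over all exons, and the altered part of the gene is not given, so this level is no check of the genotypes. KO below means the libraries labelled KO, and every direction rests on that label. The other kinase-module genes also overlapped between the genotypes. Of the 7, the widest log2 fold change was that of Med12l, at 0.17 (SE 0.21), and the 26 genes of the Mediator core had a median of 0.00, with 14 positive and 12 negative.

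A single gene passed the test across all genes, Gm15446, which fell in KO (0.00531% of the genes tested), and no gene rose. DESeq2 called 18 genes (0.0955%), 8 higher (0.0425%) and 10 lower (0.0531%) in KO, Gm15446 among them. At an unadjusted p under 0.05 there were 1078 genes (5.72%), of which 650 (3.45%) were higher and 428 (2.27%) lower. In 2826 genes (15%) the KO and WT libraries did not overlap, 1402 (7.44%) with all of KO above all of WT and 1424 (7.56%) the other way round. The log2 fold change was above 0 in 50.1% of all tested genes and below 0 in 49.9%. Among 15497 genes with a mean of at least 1 CPM in KO or WT, 117 (0.755%) were at least 2-fold higher in KO and 111 (0.716%) at least 2-fold lower. All other genes described below are given as values without a call.

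**Figure D1:**
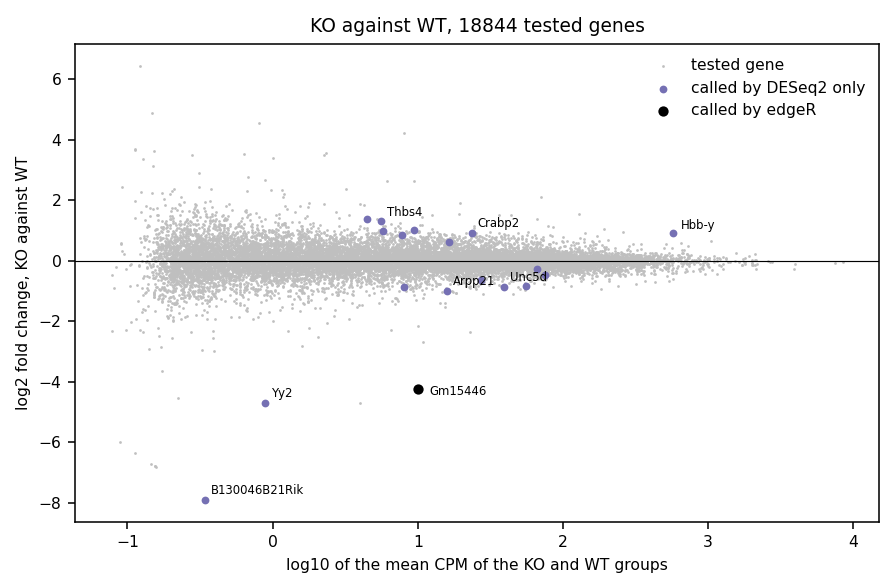
Log2 fold change of KO against WT for the 18844 tested genes (vertical axis) against mean expression in CPM on a log axis. The gene called by edgeR, Gm15446 at -4.24, and the further genes called by DESeq2 alone are marked and lie on both sides of 0.

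Gm15446 is a predicted protein-coding gene on the plus strand of chromosome 5 (ENSMUSG00000090015, chr5:109923400-109943936 on GRCm38), 8.62 Mb from Med13l. It had 18.1, 19.01 and 20.1 CPM in WT 1, 2 and 3 and 0.957, 0.572 and 1.48 CPM in KO 1, 2 and 3. All 3 KO libraries lay far below all 3 WT libraries, while Het had 11.3, 18.4 and 11.6 CPM. The gene fell by 4.24 on the log2 scale (SE 0.35, 95% interval -5.04 to -3.45, edgeR adjusted p = 0.0178), which is 18.9-fold between the group means. The difference on the log2(CPM + 0.5) scale was -3.93 within the libraries of letter D and -3.38 within those of letter F. The log2 fold change stayed between -4.63 and -3.97 when any 1 library was left out, but the adjusted p then ran from 0.0159 to 0.271. It exceeded 0.05 without WT 1 (0.114), WT 2 (0.133), WT 3 (0.0814), Het 3 (0.0616) or KO 1 (0.271), so the call, unlike the size of the difference, rests on each of these libraries. The same held when the model included a replicate block (0.267), the letter (0.0629) or the sex of the embryo (0.0769).

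The start of Gm15446 is shown with those of Hrk and Zfp932 on chromosome 5, described next. These are the 3 lower genes of smallest p within 10 Mb of Med13l, so they were picked by their values. The windows are RefSeq's on GRCm38.p6, from 250 bases before to 50 bases after each gene's start, 5′ to 3′, with CG pairs in capitals.
Gm15446, chr5:109933313-109933612, plus strand: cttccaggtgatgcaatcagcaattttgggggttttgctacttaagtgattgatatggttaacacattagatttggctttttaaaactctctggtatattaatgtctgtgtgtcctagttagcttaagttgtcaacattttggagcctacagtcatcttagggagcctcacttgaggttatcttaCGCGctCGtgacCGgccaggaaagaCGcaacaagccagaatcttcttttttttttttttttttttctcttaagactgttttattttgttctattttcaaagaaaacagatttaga
Hrk, chr5:118169514-118169813, plus strand: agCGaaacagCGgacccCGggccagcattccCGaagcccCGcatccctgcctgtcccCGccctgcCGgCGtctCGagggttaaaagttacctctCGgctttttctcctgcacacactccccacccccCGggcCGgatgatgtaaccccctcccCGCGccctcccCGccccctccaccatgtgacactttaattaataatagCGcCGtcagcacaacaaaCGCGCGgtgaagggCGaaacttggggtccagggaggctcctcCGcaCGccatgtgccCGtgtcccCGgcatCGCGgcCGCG
Zfp932, chr5:109996260-109996559, plus strand: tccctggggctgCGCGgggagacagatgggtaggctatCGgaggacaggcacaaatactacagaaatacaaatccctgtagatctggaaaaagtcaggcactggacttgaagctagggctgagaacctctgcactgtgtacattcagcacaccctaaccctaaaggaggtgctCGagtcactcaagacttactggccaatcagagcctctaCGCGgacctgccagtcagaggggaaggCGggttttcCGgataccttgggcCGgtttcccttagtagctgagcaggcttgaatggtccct
The Gm15446 window holds 5 CG pairs and 36.3% G or C, against a median of 7 CG pairs over the 32851 windows of all genes. That of Hrk holds 29 CG pairs and 65.7% G or C, more pairs than 87.1% of all windows, and that of Zfp932 holds 9 and 54.3%. TATAAA, searched on both strands, is in none of the 3 and in 13.6% of all windows. CCAAT, searched likewise, is in the Zfp932 window and in 37.4% of all windows. RefSeq and GENCODE place the starts of Gm15446 and Hrk differently, since the RefSeq windows lie inside the spans that GENCODE gives these genes.

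Genes around Gm15446 and Med13l had smaller differences, with Gm42878 as an exception. Zfp932, a zinc finger gene that follows Gm15446 (chr5:109996521-110010411), had 31.7, 27.9 and 35.6 CPM in WT and 21.7, 24.1 and 24.8 CPM in KO. Every KO library was below every WT library, with a log2 fold change of -0.43 (SE 0.11, edgeR adjusted p = 0.858). Within 1 Mb of Med13l 2 of 11 tested genes (18.2%) were at an unadjusted p under 0.05, beside 5.72% of all genes. Med13l is counted in the 11, and both of the 2 genes were lower. The first, at 0.371 Mb, was Hrk (chr5:118164648-118189478), which encodes a BH3-only protein that promotes apoptosis by binding anti-apoptotic members of the BCL2 family. In WT, Hrk had 9.75, 11.8 and 9.70 CPM, in KO 6.86, 5.04 and 5.28 CPM and in Het 6.53, 6.23 and 6.499 CPM. KO and Het were thus both below WT, and KO against WT gave -0.86 (SE 0.17, edgeR adjusted p = 0.858; DESeq2 adjusted p = 0.0017). The other, at 0.602 Mb, was Nos1, the neuronal nitric oxide synthase, which had 51.4, 53.4 and 34.6 CPM in WT and 21.5, 30.7 and 27.6 CPM in KO, again without overlap.

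Within 10 Mb of Med13l, 18 of 291 tested genes (6.19%) had an unadjusted p under 0.05, 7 higher and 11 lower, near the 5.72% of all genes. From 10 to 20 Mb the share was 9.80%, 25 of 255 genes, 16 higher and 9 lower. Gbp6 and Gbp10, both at 13.3 Mb on the side of Gm15446, were among the higher ones, and Gbp6 was picked out after its values were seen. Gbp6, an interferon-inducible GTPase, had 2.07, 1.51 and 1.64 CPM in WT and 8.62, 6.68 and 3.66 CPM in KO. Gbp10, its neighbour and of the same family, had 0.651, 0.472 and 0.493 CPM in WT and 2.67, 1.98 and 1.01 CPM in KO. In both the groups did not overlap, but genes of this family are alike in sequence, so reads may be split between them. On the other side of Med13l, Gm42878 had 1.505, 0.585 and 0.358 CPM in WT and 0.713, 24.2 and 20.96 CPM in KO, with KO 1 at the level of WT. It overlaps Mapkapk5 and Adam1a on the same strand, and Het had 2.35, 14.7 and 20.9 CPM. Alleles next to Med13l pass on together with it in matings of Het mice, so genotype and linked sequence cannot be told apart on this chromosome.

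**Figure D2:**
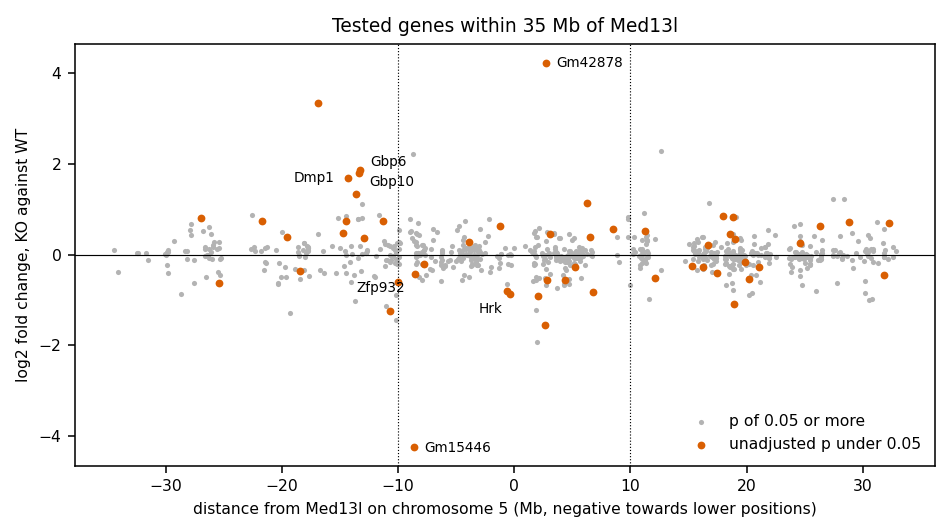
Log2 fold change of KO against WT for tested genes on chromosome 5 within 35 Mb of Med13l, against distance from Med13l in Mb (negative towards lower positions). Coloured points have an unadjusted p under 0.05, and dotted lines mark 10 Mb on either side. Gm15446 at -4.24 and Gm42878 at 4.23 lie farthest from 0.

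Several of the other lower genes of smallest p are known from neurons. Unc5d, a receptor for netrins and Flrt proteins found on migrating cortical neurons, had 51.0, 57.6 and 44.1 CPM in WT and 24.2, 27.7 and 32.8 CPM in KO. Every KO library was below every WT library, with a log2 fold change of -0.85 (SE 0.15, edgeR adjusted p = 0.858; DESeq2 adjusted p = 0.0017). Cdh13, a cadherin held to the membrane by a lipid anchor, had 66.1, 75.9 and 72.4 CPM in WT and 29.9, 41.6 and 48.7 CPM in KO (-0.83, SE 0.18). Arpp21, a neuronal phosphoprotein that binds RNA, had 20.4, 20.3 and 22.7 CPM in WT and 6.97, 11.4 and 13.4 CPM in KO (-0.995, SE 0.22). In both genes KO 1 was the lowest and KO 3 the closest to WT. Camkv, a pseudokinase of synaptic vesicles, had 31.4, 31.9 and 36.4 CPM in WT and 18.9, 20.01 and 25.5 CPM in KO (-0.63, SE 0.13). Cttnbp2, which binds cortactin in dendritic spines, had 126, 127 and 115 CPM in WT and 72.1, 85.7 and 88.0 CPM in KO (-0.58, SE 0.13). Lrrtm1, a postsynaptic adhesion protein, had 14.6, 12.6 and 18.1 CPM in WT and 8.37, 10.1 and 8.37 CPM in KO (-0.75, SE 0.18).

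Lower genes outside the neuronal set included 2 linked to cilia. Ift46, part of the transport train inside cilia, had 69.5, 76.3 and 72.5 CPM in WT and 58.8, 60.1 and 60.4 CPM in KO, a narrow difference of -0.28 (SE 0.07) with little spread in either group. Jhy, needed for ependymal cilia in mice, had 1.28, 2.81 and 1.90 CPM in WT and 0.757, 0.624 and 0.821 CPM in KO (-1.44, SE 0.36). Yy2, a retroposed copy of the transcription factor gene Yy1, lies inside Mbtps2 on the same strand, so its reads may not be separable from those of that gene. It had 1.10, 1.15 and 2.91 CPM in WT and 0.0223, 0.0520 and 0.117 CPM in KO, with 0.463 to 0.559 CPM in Het. It had the second smallest p of all genes and a log2 fold change of -4.70 (SE 0.62, edgeR adjusted p = 0.391; DESeq2 adjusted p = 1.94e-06). Tmem151b, Fam43b, Phex and Trim17 completed the 15 lower genes, with log2 fold changes of -0.47, -2.97, -1.28 and -1.27. Of these, Fam43b had under 1 CPM in all 6 libraries.

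Among the 15 higher genes of smallest p, several encode matrix and adhesion proteins. Hapln1, which links hyaluronan to proteoglycans, had 2.47, 2.87 and 2.13 CPM in WT and 7.35, 7.80 and 4.43 CPM in KO (1.39, SE 0.31). Thbs4, a thrombospondin of the matrix, had 3.44, 3.47 and 2.80 CPM in WT and 10.2, 8.52 and 5.21 CPM in KO (1.30, SE 0.27). Itgb3, an integrin subunit, had 4.94, 3.66 and 2.87 CPM in WT and 7.17, 8.26 and 7.41 CPM in KO (0.99, SE 0.23). The KO libraries were above all WT libraries in each, and none had an edgeR adjusted p under 0.858, while DESeq2 called all 3 (adjusted p of 0.0275 for Hapln1, 0.0106 for Thbs4 and 0.0302 for Itgb3). Zyx, a protein of focal adhesions, stood at 62.3, 61.5 and 54.7 CPM in WT and 86.7, 76.2 and 74.0 CPM in KO (0.41, SE 0.09). Dmp1, a matrix phosphoprotein best known from bone and a further gene of chromosome 5, had 0.264 to 0.358 CPM in WT and 0.797 to 1.16 CPM in KO.

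Signalling genes formed another part of the higher set. Crabp2, which carries retinoic acid to its nuclear receptors, had 17.0, 14.0 and 17.9 CPM in WT and 35.6, 25.7 and 30.8 CPM in KO, a log2 fold change of 0.92 (SE 0.18, edgeR adjusted p = 0.858; DESeq2 adjusted p = 0.013). Het had 30.3, 20.04 and 24.1 CPM, and its mean lay between those of WT and KO. Spry4, a feedback inhibitor of receptor tyrosine kinase signalling to ERK, had 6.20, 5.46 and 5.20 CPM in WT and 11.9, 9.95 and 8.21 CPM in KO (0.84, SE 0.18). Gxylt2 adds xylose to the sugar on Notch repeats and had 5.50, 7.53 and 5.73 CPM in WT and 15.2, 12.9 and 9.57 CPM in KO (1.01, SE 0.21). Both had KO 1 highest and KO 3 nearest to WT. Mob3b, of the MOB family of kinase cofactors, had the smallest p of the higher genes, with 14.0, 13.1 and 11.6 CPM in the WT libraries and 20.95, 20.4 and 17.9 CPM in the KO libraries (0.62, SE 0.12, edgeR adjusted p = 0.858; DESeq2 adjusted p = 0.0014). The globin genes Hbb-y and Hba-a1 were also in the set and are described with the other red cell genes. Kcne4, Gbp10, Slc39a7 and Alox12 completed it, with log2 fold changes of 1.25, 1.80, 0.46 and 1.09.

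Across these 30 genes the KO libraries ranked alike. KO 3 was nearest to the WT mean in 23 of the 30 and KO 1 farthest in 19. The Het mean lay between KO and WT in 25. The genes were picked by their KO and WT values, which favours a Het mean in between. An effect of the number of null alleles was not tested. Counting genes at least 2-fold from the WT mean, KO 1 had 325 higher and 586 lower, KO 2 had 262 and 128, and KO 3 had 77 and 101, so that the 3 KO brains differed in how far they departed from WT.

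**Figure D3:**
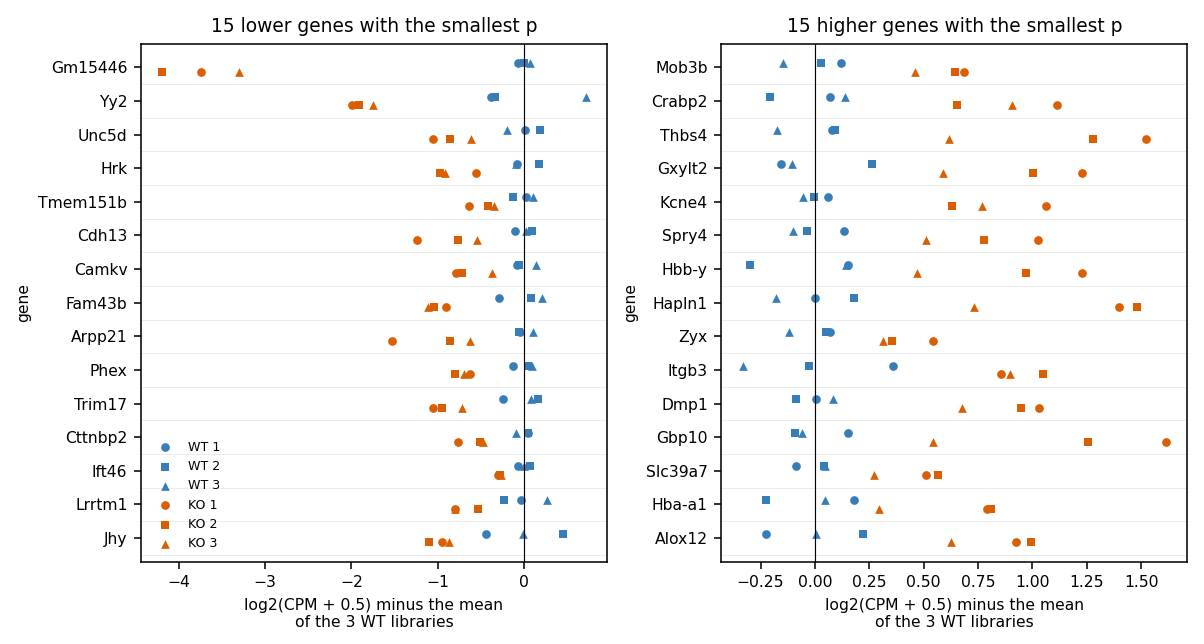
Log2(CPM + 0.5) of each library minus the mean of the 3 WT libraries, for the 15 lower (left) and 15 higher (right) genes of smallest p. WT libraries are blue and KO libraries orange, with 1 symbol per replicate number. No gene has overlapping groups, and KO 3 (orange triangles) is nearest to WT in 23 of the 30.

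Large folds were also seen, mostly in scarce transcripts. Ddn, a postsynaptic protein, had 2.74, 1.77 and 3.90 CPM in WT and 0.0891, 0.312 and 0.797 CPM in KO. Gda, guanine deaminase, had 2.22, 1.68 and 2.46 CPM in WT and 0.289, 0.260 and 0.727 CPM in KO. Fam19a1, a small secreted protein of neurons, had 3.23, 3.17 and 4.17 CPM in WT and 0.134, 0.520 and 1.20 CPM in KO. All 3 genes had every KO library below WT, with log2 fold changes of -2.80, -2.31 and -2.51. In the other direction, Pttg1, the securin that inhibits separase, had 8.49, 7.85 and 8.49 CPM in WT and 58.3, 9.54 and 24.3 CPM in KO, and its mean was set mainly by KO 1. Rn7sk, the 7SK RNA that holds the elongation factor P-TEFb, had 0.202, 0.0755 and 0.246 CPM in WT and 0.312, 0.416 and 2.81 CPM in KO, where KO 3 set the mean. Gm14403, Abi3bp and Pax7 were the others, and Pax7 had 75.8 CPM in Het 1 against at most 1.74 CPM in any WT or KO library. B130046B21Rik, called by DESeq2 (adjusted p = 0.000273), had 2.06 CPM in WT 3 and 0 in the other WT and all KO libraries, so its call rests on 1 library. It is antisense to Ddn, and without strand information reads of the pair cannot be told apart.

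Markers of the cortical lineage are given in the order of the stages. Pax6, Sox2, Emx2 and Lhx2, transcription factors of radial glia, overlapped between KO and WT, with log2 fold changes from -0.02 to 0.10. Eomes, the intermediate progenitor factor, had 338, 341 and 333 CPM in WT and 247, 207 and 287 CPM in KO. Neurog2, which drives progenitors towards glutamatergic neurons, had 196, 189 and 194 CPM in WT and 152, 119 and 168 CPM in KO. In both the 3 WT libraries lay close together and every KO library was below them, with log2 fold changes of -0.45 (SE 0.44, edgeR adjusted p = 0.908) and -0.40 (SE 0.27, edgeR adjusted p = 0.887). Neurod6, a factor of newborn projection neurons, had 527, 551 and 516 CPM in WT and 310, 278 and 405 CPM in KO. Neurod2 had 245, 251 and 270.4 CPM in WT and 131, 139.7 and 212 CPM in KO. Tbr1, of the early-born deep layers, had 374, 367 and 372 CPM in WT and 229, 228 and 360.1 CPM in KO, where KO 3 was close to WT. Bcl11b, a factor of subcortically projecting neurons, overlapped.

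Het 1 stood apart for these markers as well. Het 1 had 52.8 CPM of Tbr1 and 96.8 CPM of Neurod6, far below the 339 or more and 417 or more CPM of the other Het libraries, and its spread enters the test. With the WT and KO libraries alone, the unadjusted p of edgeR was 0.00615 for Eomes, 0.0133 for Neurog2, 0.00143 for Neurod6, 0.00706 for Neurod2 and 0.0385 for Tbr1. In that fit 1634 genes (8.92%) were at an unadjusted p under 0.05, and the adjusted p of each of the 5 genes was 0.555. None was therefore called in either fit. In bulk tissue fewer cells of a type and less RNA per cell cannot be told apart.

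**Figure D4:**
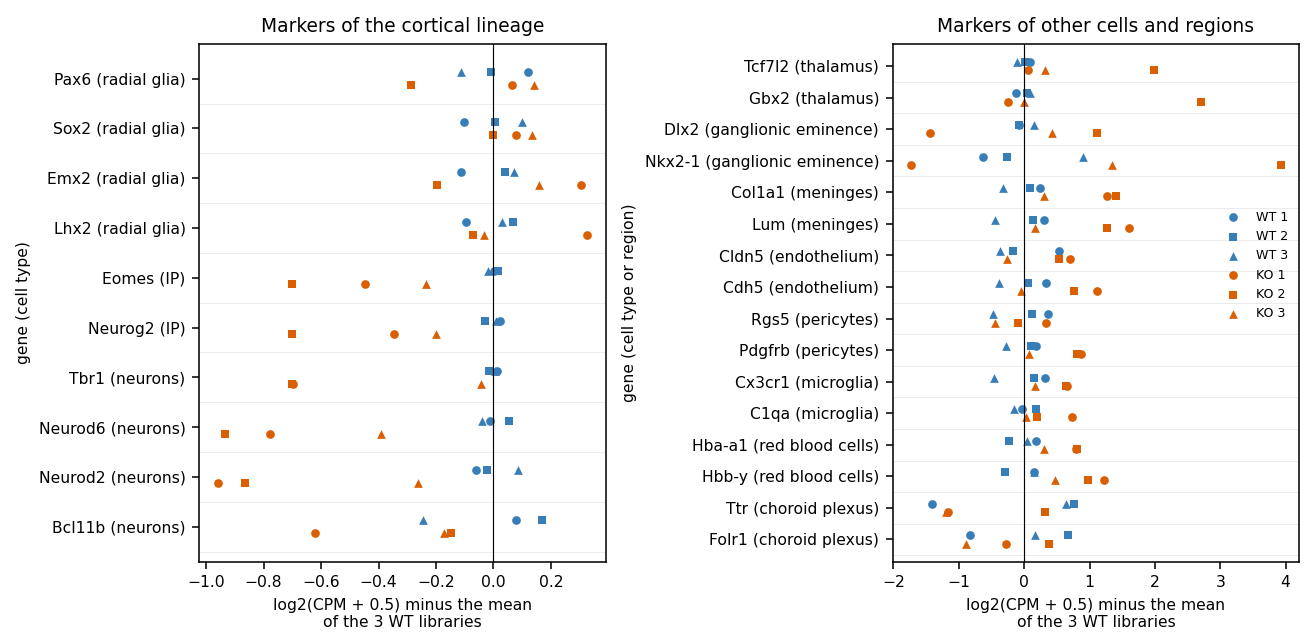
Log2(CPM + 0.5) of each library minus the mean of the 3 WT libraries for markers of the cortical lineage (left; IP, intermediate progenitors) and of other cells and regions (right). WT libraries are blue and KO libraries orange. Eomes, Neurog2, Tbr1, Neurod6 and Neurod2 have every KO library below every WT library, while Nkx2-1, Gbx2 and Tcf7l2 are highest in KO 2.

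The list of early and deep-layer projection neuron genes followed these markers. Of its 18 genes, 15 were negative, with a median log2 fold change of -0.34 against 0.00 over all genes, and 12 had every KO library below every WT library, beside 7.56% of all genes. At an unadjusted p under 0.05, 1 was lower, beside 2.27% of all genes. Without KO 1 likewise 1 was lower, beside 1.15% of all genes. Without KO 3 it was also 1, with 1829 genes at that threshold in either direction. In the fit of WT and KO alone 11 of the 18 were lower at that threshold, beside 3.91% of all genes. Without KO 1 the median of the list was -0.36. Ldb2, a cofactor of LIM-domain transcription factors, had 27.96, 23.7 and 25.1 CPM in WT and 17.6, 19.96 and 17.3 CPM in KO (-0.48, SE 0.12). Sox5, which sets the order of deep-layer fates, had 246, 281 and 196 CPM in WT and 147, 180.1 and 195 CPM in KO. The summed level of the list was 3552 to 3837 CPM in WT and 2618 to 3121 CPM in KO, with no overlap. Of the 14 intermediate progenitor and neurogenic genes, 11 were negative, with a median of -0.12, which was 0.00 without KO 2, -0.07 without WT 3 and -0.21 without KO 3. The 13 upper-layer genes had a median of -0.25, and of -0.01 without KO 1 or -0.42 without KO 3.

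Lists of neuronal maturation genes had negative medians, and KO 1 was their lowest library. All 17 tested ionotropic glutamate receptor genes were negative, with a median of -0.46, and 6 had every KO library below WT, beside 7.56% of all genes. Gria1, an AMPA receptor subunit, had 66.7, 69.1 and 83.7 CPM in WT and 21.8, 40.6 and 49.2 CPM in KO (-0.98, SE 0.30). Of 15 GABA and glycine receptor genes 13 were negative, with a median of -0.53. Of 26 synaptic vesicle genes 25 were negative, with a median of -0.42, and 12 had every KO library below WT, beside the same 7.56%. At an unadjusted p under 0.05, 3 were lower, beside 2.27% of all genes. Without KO 1, 1 was lower, beside 1.15% of all genes. Without KO 3, 8 were lower, but the genes at that threshold in either direction rose from 1078 to 1829. Among the synaptic vesicle genes, Rab3a, the vesicle GTPase, had 63.9, 62.5 and 80.5 CPM in WT and 33.4, 50.2 and 56.5 CPM in KO. Cplx1, a clamp of vesicle fusion, had 22.7, 23.2 and 27.2 CPM in WT and 9.82, 18.6 and 20.05 CPM in KO. Synaptic adhesion and scaffold genes, with Cntnap4 and Dlg2 among the lower ones, had a median of -0.35, with 22 of 24 negative. Neuronal cytoskeleton genes had a median of -0.33, sodium and calcium channels -0.31 and potassium channels -0.22, with 20 of 22, 20 of 25 and 22 of 26 negative. Kcnq3, a subunit of the M current, had 75.4, 74.9 and 66.0 CPM in WT and 24.2, 38.6 and 50.5 CPM in KO.

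These medians leaned on KO 1. Without it they were -0.29 for glutamate receptors, -0.25 for GABA and glycine receptors, -0.24 for synaptic vesicle genes, -0.16 for adhesion and scaffold genes, -0.15 for the cytoskeleton, -0.14 for sodium and calcium channels and -0.12 for potassium channels. Without KO 3 the channel medians were -0.47 and -0.38, and without WT 1 that of potassium channels was -0.14. Mean list levels also had KO 1 lowest, while the order of KO 2 and KO 3 differed between lists. Relative to the WT mean on the log2 scale, synaptic vesicle genes were at -0.92 in KO 1, -0.25 in KO 2 and -0.12 in KO 3. The 3 WT libraries lay from -0.08 to 0.10. In the same order of libraries, glutamate receptor genes were at -1.03, -0.23 and -0.28, and GABA and glycine receptor genes at -1.09, -0.25 and -0.32. Protein-coding genes that span more than 300 kb, with a mean of at least 1 CPM in KO or WT, were likewise lowest in KO 1. The 503 such genes had a median of -0.14, and relative to the WT mean their median was -0.39 in KO 1, -0.05 in KO 2 and -0.03 in KO 3. In the unadjusted counts, 445 genes (2.3%) were left without KO 1 and 1829 without KO 3.

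Genes of cells that lie beside or inside the cortex were on the positive side. All 17 meningeal fibroblast genes were positive, with a median of 0.64, and 8 were higher at an unadjusted p under 0.05, beside 3.45% of all genes. That count was 3 without KO 1, beside 1.15% of all genes. It was 14 without KO 3, but the genes at that threshold in either direction rose from 1078 to 1829. The meningeal genes summed to 819 to 1491 CPM in WT and 1281 to 2719 CPM in KO, so the ranges overlapped. Col1a1, the collagen of fibroblasts, had 147, 131 and 98.5 CPM in WT and 300.3, 329 and 153 CPM in KO (1.05, SE 0.27), with KO 3 close to WT. Endothelial genes had a median of 0.66, with 16 of 17 positive and a summed level of 453 to 715 CPM in WT and 570.3 to 1037 CPM in KO. Pericyte and smooth muscle genes had a median of 0.59, with 11 of 12 positive, and a summed level of 259.8 to 399.8 CPM in WT and 341 to 556 CPM in KO. Microglia and macrophage genes had a median of 0.40, with 12 of 14 positive, and a summed level of 87.4 to 124 CPM in WT and 102 to 177 CPM in KO. In each of these lists KO 1 and KO 2 were the highest libraries, WT 3 was the lowest and KO 3 lay among the WT libraries. Without KO 1 the medians were 0.41 for meningeal, 0.38 for endothelial, 0.43 for pericyte and 0.22 for microglia genes. The part of these cells in the lower level of neuronal genes was not tested.

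For red cell genes the ranges of the summed level did not overlap. They summed to 2222 to 3136 CPM in WT and 3214 to 4760 CPM in KO, with 13 of 14 positive and a median of 0.57. Hbb-y, the embryonic beta-like globin, had 436, 319 and 434 CPM in WT and 920.4, 771 and 544 CPM in KO (0.91, SE 0.20, edgeR adjusted p = 0.858; DESeq2 adjusted p = 0.0302). Hba-a1, an alpha-globin gene with a near-identical copy, had 927, 699 and 846 CPM in WT and 1419, 1433 and 1005 CPM in KO (0.64, SE 0.15). Every KO library was above every WT library in both.

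Genes of neighbouring brain regions differed among the KO libraries, which lay on both sides of WT. Nkx2-1, of the medial ganglionic eminence, had 1.28, 1.79 and 4.68 CPM in WT and 0.334, 41.5 and 6.54 CPM in KO. Tcf7l2, of the thalamus, had 16.6, 15.8 and 14.3 CPM in WT and 16.1, 63.3 and 19.5 CPM in KO. KO 2 was the highest for both, while KO 1 was the lowest for Dlx2, a factor of the ganglionic eminence, at 9.60 CPM against 25.5, 25.5 and 30.1 CPM in WT. The 16 ventral and interneuron genes summed to 370 to 498 CPM in WT and 198 to 762 CPM in KO. The 12 thalamus and diencephalon genes stood at 1.09 in KO 2 relative to the WT mean on the log2 scale, against -0.26 in KO 1 and 0.05 in KO 3. Their median was 0.48, and 0.06 without KO 2. Hem and choroid plexus genes summed to 311 to 847 CPM in WT and 326 to 747 CPM in KO. Of the markers of epidermis and muscle, Krt5, Krt14, Myog and Actc1 were too low to be tested. The 5 tested genes of that list had a median of 0.34, with 4 positive, and of 0.01 without KO 1 or 0.53 without WT 1. Epcam, an adhesion protein of epithelia, had 0.921, 1.13 and 1.32 CPM in WT and 2.47, 1.87 and 1.83 CPM in KO, without overlap (0.87, SE 0.32). The part of the tissue taken with each cortex in the results was not tested.

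Cell cycle genes had small positive values throughout. All 22 genes of G1 and S phase were positive, with a median of 0.25, and so were all 22 genes of G2 and M phase, with a median of 0.26. In 13 and 15 of them every KO library was above every WT library, beside 7.44% of all genes, and at an unadjusted p under 0.05 there were 0 in either list. With WT and KO alone 12 were higher at that threshold in each list, beside 5.01% of all genes, and without KO 1 the medians were 0.15 and 0.19. Top2a, the topoisomerase of dividing cells, had 625, 608 and 517 CPM in WT and 797, 690.3 and 725 CPM in KO (0.34, SE 0.24). Bub1, a kinase of the spindle checkpoint, had 73.9, 73.8 and 75.6 CPM in WT and 107, 91.8 and 98.5 CPM in KO (0.41, SE 0.25). Uhrf1, which keeps DNA methylation after replication, had 219, 212 and 178 CPM in WT and 277, 234 and 244 CPM in KO. Primary microcephaly genes, which serve the centrosome and spindle, had a median of 0.20, with 17 of 18 positive, and of 0.07 without WT 3. Het 1 was the lowest library for the cycle lists, at -0.75 and -0.82 relative to the WT mean on the log2 scale. Radial glia genes had a median of 0.06, with 12 of 18 positive, and of 0.01 without KO 1. At an unadjusted p under 0.05, 2 were lower, Fabp7 and Tnc, beside 2.27% of all genes. Without KO 1, 1 was lower, beside 1.15% of all genes. Without KO 3 it was also 1, with 1829 genes at that threshold in either direction. Fabp7, the fatty acid binding protein of radial glia, had 240.5, 256 and 287 CPM in WT and 207, 202 and 229 CPM in KO (-0.30, SE 0.09). Tnc, a matrix glycoprotein, had 61.5, 63.3 and 59.7 CPM in WT and 17.8, 37.1 and 30.7 CPM in KO (-1.11, SE 0.43), and neither gene overlapped between the groups. Nes, of the same list, went the other way without overlap, with 645, 639 and 549 CPM in WT and 762, 703 and 748 CPM in KO (0.27, SE 0.14).

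**Figure D5:**
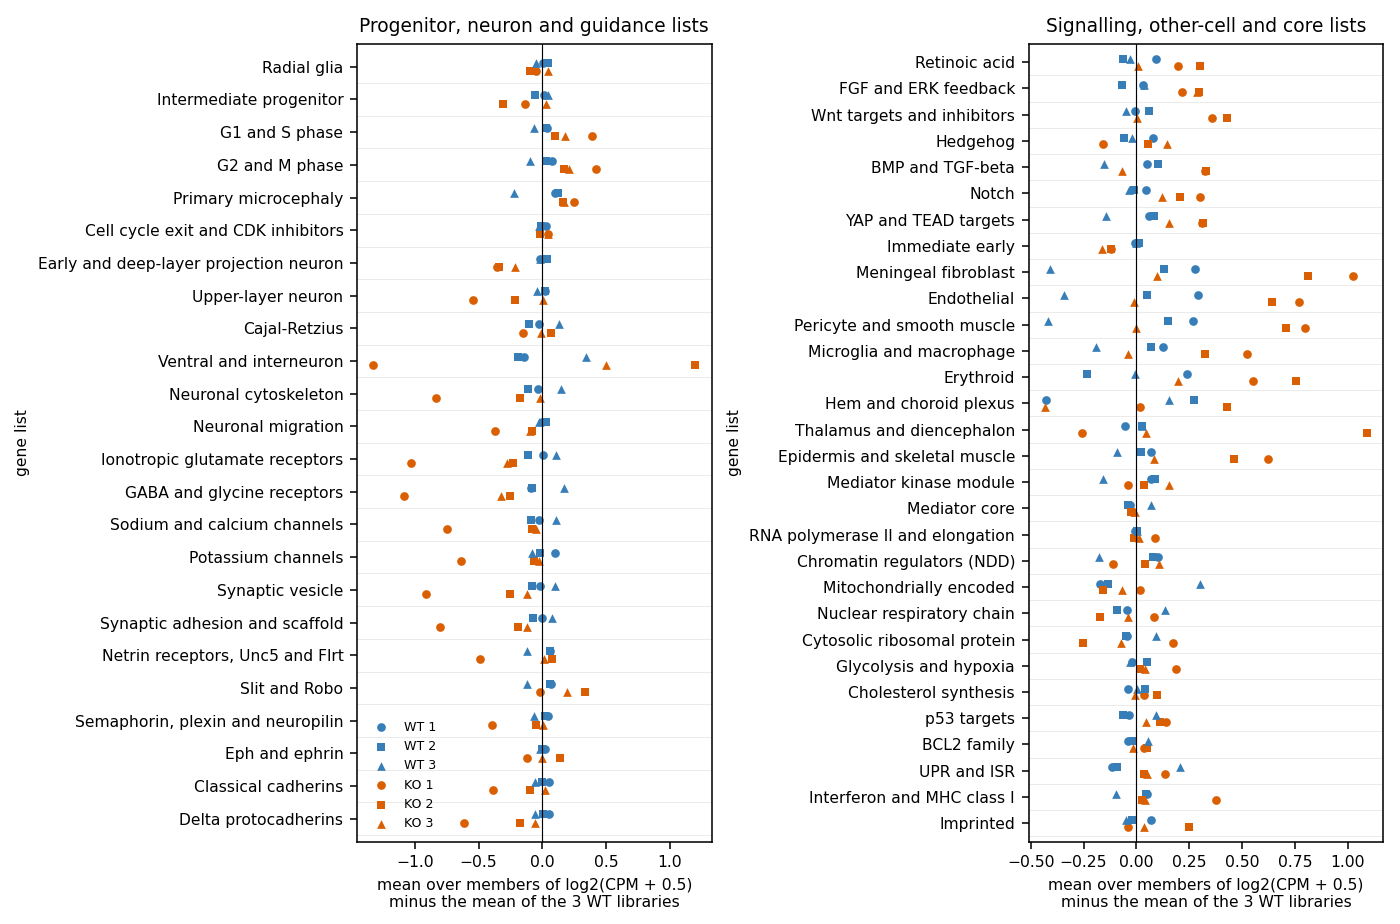
Mean over the members of each gene list of log2(CPM + 0.5) minus the mean of the 3 WT libraries, with 1 point per library (WT blue, KO orange; NDD, neurodevelopmental disorders; UPR and ISR, unfolded protein and integrated stress response). Synaptic vesicle genes lie at -0.92 in KO 1, -0.25 in KO 2 and -0.12 in KO 3, and meningeal fibroblast genes at 1.02, 0.81 and 0.10.

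Signalling lists were mostly on the positive side. Retinoic acid genes had a median of 0.29, with 15 of 17 positive, and 5 were higher and 1 lower at an unadjusted p under 0.05, beside 3.45% and 2.27% of all genes. Without KO 1, 1 was higher, beside 1.15% of all genes, and without WT 2 the median was 0.16. The lower one was Cyp26b1, an enzyme that breaks down retinoic acid, with 8.89, 11.7 and 12.2 CPM in WT and 2.63, 1.56 and 2.51 CPM in KO (-2.29, SE 0.66, edgeR adjusted p = 0.858). Every KO library was below WT, and Het ranged from 2.13 to 17.0 CPM. FGF and ERK feedback genes had a median of 0.21, with 17 of 20 positive. Besides Spry4, Dusp6, a phosphatase of ERK, had 23.9, 23.4 and 16.5 CPM in WT and 43.2, 34.4 and 25.7 CPM in KO (0.69, SE 0.22), and Il17rd, an FGF receptor antagonist, had 30.8, 29.2 and 26.5 CPM in WT and 48.7, 48.3 and 44.3 CPM in KO (0.71, SE 0.23). In all 3 the groups did not overlap. Etv4, a transcription factor downstream of ERK, had 4.29, 3.89 and 4.59 CPM in WT and 7.24, 6.65 and 6.12 CPM in KO.

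Medians of the other pathways ran from -0.10 to 0.29. Wnt targets and inhibitors had a median of 0.29 (16 of 18 positive), BMP and TGF-beta genes 0.28 (20 of 25), YAP and TEAD targets 0.23 (14 of 14) and Notch genes 0.17 (18 of 22), and without WT 3 that of BMP and TGF-beta genes was 0.18. Notch3, a receptor of radial glia and of pericytes, had 108, 103 and 84.5 CPM in WT and 145, 125 and 119 CPM in KO (0.40, SE 0.11), and it is in the pericyte list as well. Hedgehog genes had a median of 0.06 and immediate early genes -0.10, the latter -0.17 without WT 1 or without WT 2.

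Guidance and adhesion genes held members in both directions. Of the 10 Slit and Robo genes 3 were higher at an unadjusted p under 0.05, beside 3.45% of all genes, among them Robo4, which is also in the endothelial list. Of the 15 netrin receptor, Unc5 and Flrt genes 1 was higher and 3 were lower at that threshold, beside 3.45% and 2.27% of all genes. Without KO 1, 1 was higher and 2 were lower, beside 1.15% of all genes each way. The median of this list was -0.04, and 0.04 without KO 1 or -0.13 without KO 3. Robo3, which controls midline crossing of axons, had 11.8, 7.004 and 10.8 CPM in WT and 32.6, 23.4 and 29.8 CPM in KO (1.54, SE 0.41, edgeR adjusted p = 0.858). Het had 58.8, 19.2 and 23.9 CPM, so that all KO and all Het libraries were above WT. Flrt3, a partner of Unc5 receptors, had 54.5, 58.9 and 58.2 CPM in WT and 83.6, 81.5 and 63.0 CPM in KO. Ntng2, a membrane-bound relative of netrins, had 72.1, 80.6 and 66.8 CPM in WT and 32.5, 49.3 and 57.2 CPM in KO. Cdh11, a cadherin of mesenchyme and neurons, had 87.9, 96.7 and 73.5 CPM in WT and 137, 138 and 90.5 CPM in KO, with overlap. Semaphorin, plexin and neuropilin genes had a median of -0.16, Eph and ephrin genes -0.02, classical cadherins -0.20 and delta protocadherins -0.25. Without KO 1 they were -0.03, 0.04, -0.02 and -0.11, without WT 1 that of classical cadherins was -0.06 and without KO 3 that of delta protocadherins was -0.39. Neuronal migration genes had a median of -0.24, with 14 of 19 negative, and of -0.12 without KO 1. Dab1, the adaptor of reelin signalling, had 177, 173 and 158 CPM in WT and 124, 129 and 155 CPM in KO (-0.32, SE 0.10), with KO 3 just below WT.

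Housekeeping lists and several lists of other kinds had medians near that of all genes, apart from the interferon and MHC list. RNA polymerase II and elongation genes had a median of 0.01, chromatin regulators of neurodevelopmental disorders 0.04, cytosolic ribosomal protein genes -0.03, mitochondrially encoded genes -0.09, cholesterol synthesis genes 0.03, p53 targets 0.02 and BCL2 family genes 0.01. Glycolysis and hypoxia genes were at 0.09, genes of the nuclear respiratory chain at -0.06 and imprinted genes at 0.06. Signs were uneven in some of these lists despite the small medians. Negative were 12 of 13 mitochondrially encoded genes and 22 of 29 of the nuclear respiratory chain. Positive were 26 of 33 chromatin regulators and 17 of 21 glycolysis and hypoxia genes. Cajal-Retzius genes were at -0.01, cell cycle exit genes at 0.00 and stress response genes at 0.01, while interferon and MHC class I genes were at 0.24, and at 0.01 without KO 1 or 0.05 without WT 3. With any 1 library left out, these medians, apart from that of the interferon and MHC list, stayed between -0.18 (mitochondrially encoded genes) and 0.20 (stress response genes). The 12 Cajal-Retzius genes, 6 positive and 6 negative, still summed to 821 to 863 CPM in WT and 642 to 808 CPM in KO, without overlap. Among them Reln had 258, 235 and 231 CPM in WT and 190, 212 and 212 CPM in KO (-0.24, SE 0.11). The p53 target and BH3-only gene Pmaip1 had 0.449, 1.32 and 0.963 CPM in WT and 2.40, 2.91 and 2.32 CPM in KO (1.47, SE 0.38, edgeR adjusted p = 0.858), opposite in direction to the BH3-only gene Hrk.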

How the data were processed

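Bulk cortex RNA-seq libraries of WT, Het and KO embryos were used, 3 per genotype. The deposited table holds whole-number read counts per gene, made by the authors and not normalised. FastQC 0.11.9, STAR 25.2b and StringTie 2.2.1 are among the tools in the submitters' processing notes, which give the build mm10. The counting tool, annotation release, strandedness and handling of multiply mapped reads are not given in the sources used here, so counts of overlapping, antisense and near-identical genes are uncertain. Symbols and positions came from GENCODE M21 on GRCm38, for 55154 of 55335 IDs, and sequences from RefSeq on GRCm38.p6. Of the genes, 24220 had no count in any library.

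The test was edgeR's quasi-likelihood F test (version 4.0.16, R 4.3.3; robust, two-sided), with TMM factors, filterByExpr by genotype and all 9 libraries in 1 fit without covariates. P-values were adjusted by Benjamini-Hochberg over all 18844 tested genes, which held 99.9% of counts, and called under 0.05. The common biological coefficient of variation was 28.2%. Standard errors were derived from the F statistic. The edgeR step was tested on simulated data. Lists were described by counts and medians and not tested. Alternatives were DESeq2 1.42.0, limma-voom 3.58.1, other size factors and filters, WT and KO libraries alone, blocks for replicate number and letter, embryo sex and leaving out each library. Removal of Het 1 and KO 1 together was chosen after seeing the data.

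No 2 libraries of a genotype were copies (lowest mean chi-square per gene 23.1). Named genes were the calls, the 15 higher and 15 lower genes of smallest p, genes called by DESeq2, the 5 largest changes each way at 1 CPM or more without overlap, genes within 10 Mb of Med13l at an unadjusted p under 0.05, up to 3 members of smallest p per list and the kinase module. Other list members named as examples, and Gbp6, were chosen after their values were seen. The rule, the members and all lists were chosen with earlier results of these data known. Single-cell samples were not analysed here. Single values of some list members are not reported here.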

Additional observations from a re-analysis of the deposited data

How the results depend on the processing

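The single edgeR call was kept with RLE size factors, without an expression filter, with a mean of at least 1 CPM, with WT and KO libraries alone and with limma-voom. It was 0 with the letter as a block, with embryo sex as a covariate and without Het 1 and KO 1 together, an alternative added after seeing the data. With the replicate number as a block the call was also lost (0 genes, and 1067 at an unadjusted p under 0.05). The labels state no pairing, and the numbers were not taken to pair the libraries. Deviations of same-numbered WT and KO libraries correlated at 0.02, 0.14 and 0.15, and those of differently numbered ones at -0.25 to 0.12. These values do not settle whether the libraries are paired. Leaving out single libraries gave 0 to 1 genes called, 0 to 1 lower and 445 to 1829 at an unadjusted p under 0.05, the extremes without KO 1 and without KO 3. WT and KO libraries alone gave 1634, and DESeq2 called 18 genes, 8 higher and 10 lower. The cause of these shifts was not tested. Of the single genes named, 10 turned in sign under some setting, and that of B130046B21Rik became 0. When single libraries were left out, the log2 fold change of B130046B21Rik ran from -8.49 to 0 (without WT 3), Gbx2 from -1.04 to 4.10 and Shox2 from -0.88 to 4.95 (both lowest without KO 2). The same range was -0.284 to 0.0453 for mt-Atp8, -0.217 to 0.0344 for mt-Co2 and -0.180 to 0.0270 for mt-Cytb, each highest without WT 3. It was -0.280 to 0.0215 for Rpl30 (highest without KO 2), -0.00686 to 0.527 for Mylpf (lowest without KO 1), -0.0411 to 0.113 for Ccnc, -0.133 to 0.0533 for Med13 and -0.0908 to 0.0802 for Med12. Without an expression filter Med12 was at -0.00968. Without Het 1 and KO 1, Mylpf was at -0.00676, Ccnc at -0.0198 and Med13 at 0.05. Each WT and KO library held 38161494 counts or more, and the number of brains, 3 a side, limits the precision.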
